A study of Mus musculus with 72 samples.

Results

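Hippocampal gene expression in mice dissected 30 min after contextual fear conditioning (FC30) was compared with that in mice dissected 24 h after the same training (FC24). The members were chosen by their labels, 9 arrays titled for each time point, and make up 18 of the 72 arrays of the series. In contextual fear conditioning a mouse placed in a chamber receives a foot shock and learns to associate the place with it. FC30 and FC24 mice had the same single shock of 2 s at 1.5 mA, ending 2.5 min after placement in the chamber at Zeitgeber time 3, and were dissected at about the same hour of the day. Both groups were therefore trained, and the comparison asked what distinguishes the hippocampus shortly after training from that of a trained mouse a day later, without the untrained controls. For reference, RT30 mice were trained, put back in the chamber for 5 min at 24 h and dissected 30 min later, FC4 and FC12 mice were dissected 4 h and 12 h after training, and CC30, CC4 and CC12 mice were handled but not trained. All were C57BL/6J males, 2 months old, housed singly and handled beforehand. Each array held the RNA of both hippocampi of 1 mouse, and per the protocol the 9 mice of a group came from independent conditioning experiments. No group received the chamber or the shock alone.

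Neuronal activity switches on immediate early genes within minutes, before any new protein is made. Calcium entry and MAP kinase signalling act on factors already bound at their promoters, such as CREB at cyclic AMP response elements (CRE) and serum response factor at CArG boxes. The products are transcription factors (Fos, Egr and Nr4a families, Npas4), effectors at the synapse (Arc) and inhibitors that shut the signal off (dual-specificity phosphatases, Sik1). Their mRNAs are short-lived and in the hippocampus usually return to baseline within hours.

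The values were log2 signals of 35556 probe sets, groups of short DNA probes that together report a transcript. The largest component of variation between arrays (PC1, 17.4% of the variance) was subtracted before the tests. The methods of the study also removed a first component, but the share of variance they state for it is larger, so the component removed here may not be the same one, and whether it had been taken out of the deposited values already was not tested. With no component removed, 42 probe sets were called in place of the 54 given next. PC1 scores did not separate the groups (FC30 mean 5.45, FC24 mean -4.85, exact permutation p = 0.311, two-sided, n = 9 each). FC30 replicate 4 stood far from its group on PC1 with a score of 68.6, and FC24 replicate 4 stood apart with a score of 2.83. Calls were also made without these 2 arrays, and genes whose call ended are given where they are described. Correlations between the 18 arrays lay from 0.979 to 0.996. The number of arrays limited the precision, with a median standard error of 0.0495 for a log2 fold change.

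Of the 35556 probe sets, 54 differed between FC30 and FC24 (limma, Benjamini-Hochberg adjusted p under 0.1, two-sided), 0.152% of those tested. In FC30, 42 were higher (0.118%) and 12 were lower (0.0337%). The total was 30 without FC24 replicate 3, 19 with the replicate number as a block, 30 with PC1 taken from the 18 arrays alone and 9 where z-scores were ranked by local rates of false discovery, and the last 3 of these settings called 0 lower. The count was 32 at an adjusted p under 0.05 and 16 at 0.01, and 2806 probe sets had an unadjusted p under 0.05. A single gene symbol was carried by 38 of the 54, 34 of them higher (0.181% of 18820 genes) and 4 lower (0.0213%). Of the rest, 3 probe sets carried several symbols, all higher, and 13 carried none, 5 higher and 8 lower. The higher genes were 1.09- to 2.29-fold above FC24. For 16 of the 34 higher genes the lowest FC30 mouse lay above the highest FC24 mouse, a separation seen in 0.085% of all genes and in 18 of all probe sets (0.0506%). In 33 of 34, all 9 FC30 mice lay above the FC24 mean, which the call itself favours, and the share over all genes was not computed. In bulk tissue, fewer cells of a type and less RNA per cell cannot be told apart.

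**Figure D1:**
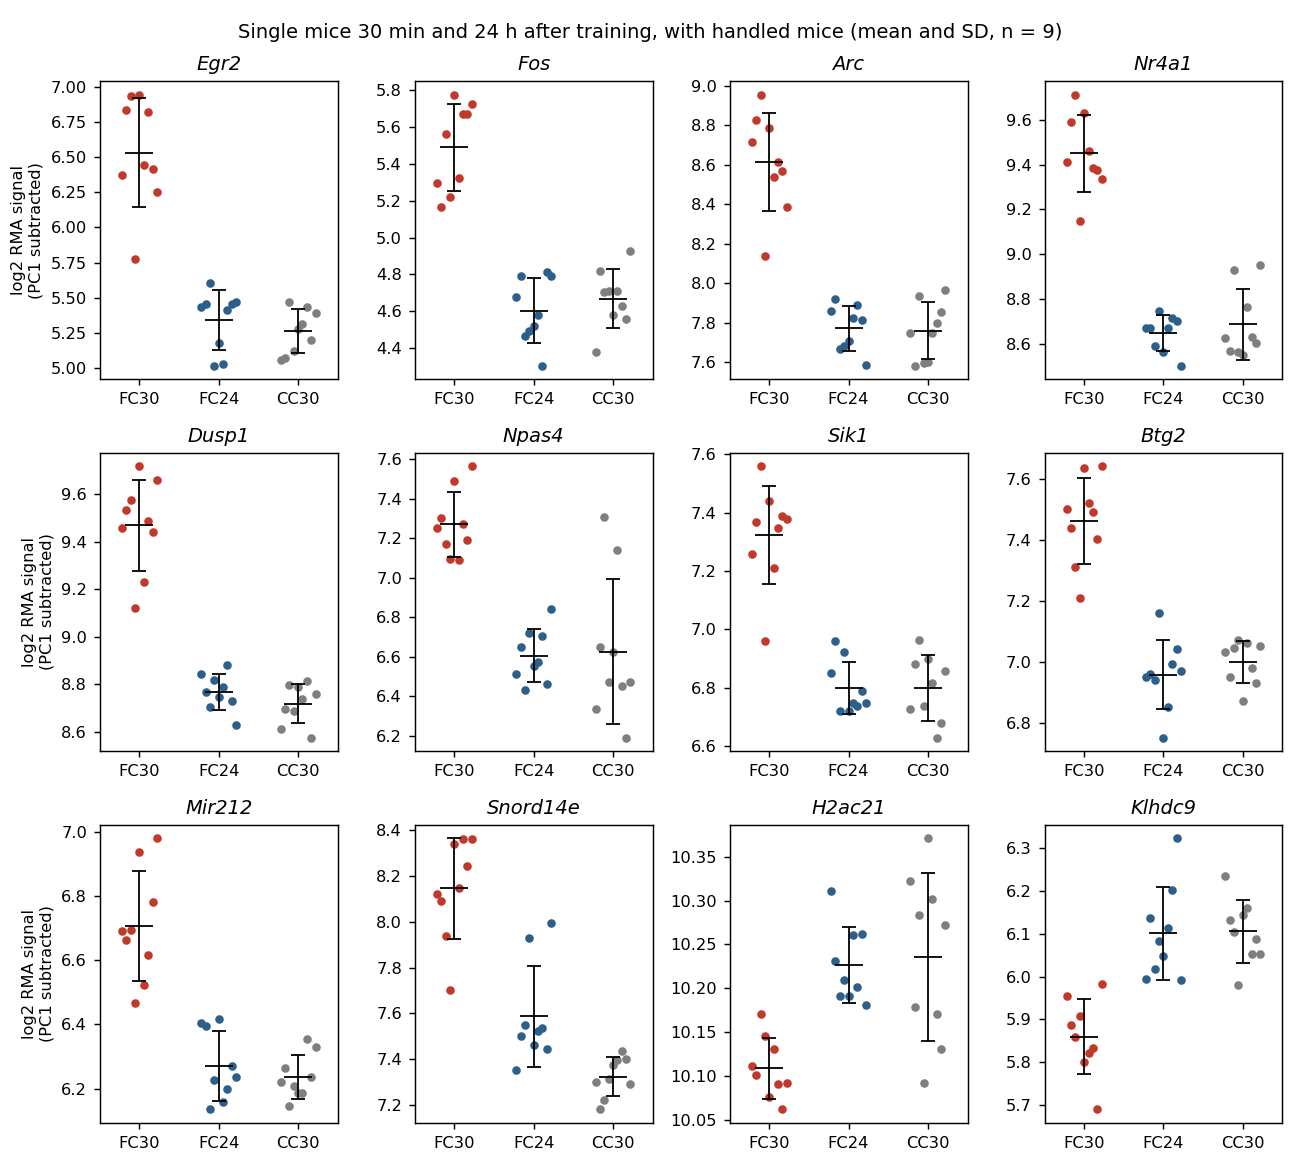
Log2 RMA signal, PC1 subtracted, of 12 genes in single mice (points) of FC30, FC24 and CC30, with the mean and SD of 9 mice (bars); each panel has its own axis. In the Egr2, Fos, Arc, Nr4a1, Dusp1, Npas4, Sik1, Btg2 and Mir212 panels no FC30 mouse overlaps an FC24 mouse, and in the H2ac21 and Klhdc9 panels all FC30 mice lie below all FC24 mice.

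The largest fold changes among named genes, those of Egr2 and Fos, were in transcription factors of the immediate early class. Of 27 activity-induced transcription factors measured, 10 were higher in FC30 and 0 lower, beside 0.181% of all genes higher. The list median log2 fold change was 0.14 against 0.0045 for all genes. This list and those below were chosen with earlier results of these data known, so their counts are a description. Egr2, a zinc finger factor, lay at 5.77, 6.44 and 6.95 (lowest, median and highest log2 signal) in FC30 mice and at 5.02, 5.44 and 5.61 in FC24 mice. The groups did not overlap, although the lowest FC30 mouse, replicate 4, came close to the FC24 range. The log2 fold change of Egr2 was 1.19 ± 0.14 (SE, 2.29-fold, adjusted p = 0.000268 from limma). Fos, a subunit of the AP-1 factor, lay at 5.17, 5.56 and 5.77 in FC30 mice and at 4.31, 4.58 and 4.82 in FC24 mice. All FC30 mice were above all FC24 mice, with a log2 fold change of 0.88 ± 0.09 (1.85-fold, adjusted p = 8.69e-05 from limma). Nr4a1, an orphan nuclear receptor, lay at 9.15, 9.41 and 9.71 in FC30 mice and at 8.50, 8.67 and 8.75 in FC24 mice. It had the smallest adjusted p of all probe sets (2.36e-06 from limma), with a log2 fold change of 0.80 ± 0.06. Npas4, a neuronal factor induced by calcium influx, lay at 7.09, 7.25 and 7.56 in FC30 mice and at 6.43, 6.57 and 6.84 in FC24 mice. It was higher by 0.67 ± 0.07 on the log2 scale without overlap (adjusted p = 7.18e-05 from limma).

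Within the AP-1, Egr and Nr4a families some members passed and others did not. Among AP-1 genes, Fosb (log2 fold change 0.44) and Junb (0.42) rose, while Jun had 9.63 ± 0.08 in FC30 and 9.60 ± 0.05 in FC24 (SD, n = 9 each; log2 fold change 0.03, 95% interval -0.04 to 0.10). Of the Egr genes, Egr1 (0.35, adjusted p = 0.00179) and Egr4 (0.36, adjusted p = 0.0405) joined Egr2, and Egr3 had a log2 fold change of 0.13 that did not pass (adjusted p = 0.366). Of the Nr4a receptors, Nr4a3 rose by 0.14 (adjusted p = 0.0445, and 0.114 without FC24 replicate 3) and Nr4a2 had a log2 fold change of 0.04 (95% interval -0.06 to 0.14). Csrnp1, a nuclear protein with a cysteine- and serine-rich region, rose by 0.26 (adjusted p = 0.0362). Whether the members of a family differed from each other was not tested. Atf3 (0.23, adjusted p = 0.357) and Klf2 (0.17, adjusted p = 0.442) had fold changes above 0.15 and did not pass. All adjusted p-values are from limma, and Jun, Egr3, Nr4a2, Atf3 and Klf2 were picked for mention after their values were seen.

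The sequences before the start sites of 5 of these induced genes are shown because their CRE and CArG letters are the classical entry points of activity signalling. Each is the 250 bases upstream of a RefSeq start (GRCm38.p6), read 5′ to 3′ on the strand of the gene, with matches in capitals. The letters searched were TGACG and its reverse complement CGTCA, here called the CRE core, the full CRE TGACGTCA, which contains both cores, and the CArG box.
Egr2, chr10:67537619-67537868, plus strand: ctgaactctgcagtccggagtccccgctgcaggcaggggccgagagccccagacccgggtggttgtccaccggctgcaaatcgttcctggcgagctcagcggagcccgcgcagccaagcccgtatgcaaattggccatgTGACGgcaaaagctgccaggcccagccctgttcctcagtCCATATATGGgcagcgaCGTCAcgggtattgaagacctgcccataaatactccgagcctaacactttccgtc
Fos, chr12:85473640-85473889, plus strand: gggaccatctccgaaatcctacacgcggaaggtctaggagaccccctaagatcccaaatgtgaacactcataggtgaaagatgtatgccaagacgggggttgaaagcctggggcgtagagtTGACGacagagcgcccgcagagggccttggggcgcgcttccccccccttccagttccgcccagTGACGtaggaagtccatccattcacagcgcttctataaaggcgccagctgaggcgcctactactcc
Nr4a1, chr15:101266596-101266845, plus strand: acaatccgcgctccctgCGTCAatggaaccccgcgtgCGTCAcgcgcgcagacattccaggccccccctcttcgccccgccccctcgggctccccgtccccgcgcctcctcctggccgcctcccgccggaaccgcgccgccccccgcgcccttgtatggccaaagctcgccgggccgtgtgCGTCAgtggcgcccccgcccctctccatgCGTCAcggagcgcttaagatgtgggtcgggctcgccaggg
Dusp1, chr17:26508473-26508722, minus strand: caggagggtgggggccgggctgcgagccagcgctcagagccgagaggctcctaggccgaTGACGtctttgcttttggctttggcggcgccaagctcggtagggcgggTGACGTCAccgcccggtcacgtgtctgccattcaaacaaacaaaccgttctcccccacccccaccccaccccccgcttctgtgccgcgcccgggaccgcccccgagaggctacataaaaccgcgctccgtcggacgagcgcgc
Btg2, chr1:134079156-134079405, minus strand: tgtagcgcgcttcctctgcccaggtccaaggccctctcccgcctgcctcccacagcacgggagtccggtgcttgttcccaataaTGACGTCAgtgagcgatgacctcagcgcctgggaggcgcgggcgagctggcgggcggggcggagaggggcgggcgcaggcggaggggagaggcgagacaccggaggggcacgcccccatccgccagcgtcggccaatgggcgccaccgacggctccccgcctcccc

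The 5 windows differ in what they hold. Egr2 has 5 annotated windows, and the first of those with the most matches is printed. Another Egr2 window held a CArG box and no core. The printed Egr2 window has a CArG box between cores on either side, Fos has 2 cores, Nr4a1 has 4, and Dusp1 and Btg2 have a full CRE. A window was found for 25 of the 34 higher genes, and 21 of these 25 (84.0%) held at least 1 CRE core, as did 3 of the 4 lower genes (75.0%). Among all 27025 genes with a window, 19.8% held at least 1. Any window of a gene counted, and all genes were not matched to the called ones for base composition or number of windows. The full CRE was found in 2 of the 25 (8.0%; 1.77% of all genes) and the CArG box in 2, Egr2 and Dusp5 (8.0%; 1.62% of all genes). A match describes letters in the window and is not a measured binding site.

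Among activity-induced effectors, 5 of 29 were higher in FC30 and 0 lower (median log2 fold change 0.07), beside 0.181% of all genes higher. Arc, a synaptic protein that promotes the internalization of AMPA receptors, lay at 8.14, 8.61 and 8.96 in FC30 mice and at 7.59, 7.82 and 7.92 in FC24 mice. No FC30 mouse reached down to the FC24 range, and the log2 fold change was 0.84 ± 0.09 (1.79-fold, adjusted p = 7.18e-05 from limma). Ccn1, a secreted matrix protein, rose by 0.57 ± 0.07, with 8 of 9 FC30 mice above all FC24 mice. Sik1, a kinase that restrains the CREB coactivators, lay at 6.96, 7.37 and 7.56 in FC30 mice and at 6.72, 6.75 and 6.96 in FC24 mice (log2 fold change 0.52 ± 0.06, adjusted p = 0.000281 from limma). The lowest Sik1 value in FC30, again replicate 4, just exceeded the highest in FC24. Sgk1, a kinase of the ion transport and stress response, rose by 0.19 ± 0.03 (adjusted p = 0.00479 from limma), a small but even difference with SDs of 0.06 in FC30 and 0.04 in FC24. Other known activity genes did not pass. Bdnf, a neurotrophin, had 6.16 ± 0.10 in FC30 and 6.10 ± 0.08 in FC24 (SD, n = 9 each; log2 fold change 0.06, 95% interval -0.03 to 0.15), and its probe set does not separate the transcripts made from different promoters. Homer1, a postsynaptic scaffold, stood 0.09 higher on the log2 scale (limma, adjusted p = 0.491), and Gadd45b, which takes part in DNA demethylation, 0.26 (adjusted p = 0.337); both were picked after their values were seen.

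Some inhibitors of the signals that induce these genes were also higher. Of 17 MAP kinase phosphatases and Sprouty inhibitors, 2 rose and 0 fell (median 0.03), beside 0.181% of all genes called higher. Dusp1, which dephosphorylates MAP kinases in the nucleus, lay at 9.12, 9.49 and 9.72 in FC30 mice and at 8.63, 8.77 and 8.88 in FC24 mice. The groups did not overlap, and the log2 fold change was 0.70 ± 0.07 (1.63-fold, adjusted p = 3.65e-05 from limma). Dusp5, an ERK phosphatase, rose by 0.34 ± 0.06 (adjusted p = 0.031), and Dusp6 (0.23, adjusted p = 0.249) and Dusp4 (0.15, adjusted p = 0.319) did not pass. Of the 4 Btg and Tob genes, which recruit deadenylases to shorten mRNA tails, Btg2 and Tob2 rose, beside the same 0.181% of all genes. Btg2 lay at 7.21, 7.49 and 7.64 in FC30 mice and at 6.75, 6.96 and 7.16 in FC24 mice, a log2 fold change of 0.50 ± 0.06 (adjusted p = 0.000268), and Tob2 rose by 0.20 ± 0.03 (adjusted p = 0.031). Of 21 CREB pathway genes, Sik1 alone passed, and Creb1 itself had a log2 fold change of -0.0037. Of 11 NF-kB subunits and inhibitors 0 passed the limma test and 3 had an unadjusted p under 0.05, all positive. The largest of these were Rel (0.24, adjusted p = 0.118) and Nfkbia (0.20, adjusted p = 0.319), the inhibitor that NF-kB itself induces.

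Further higher genes belong to none of these families and were named because they passed, after their values were seen, apart from Apold1 and Tnfrsf25. Apold1, an early response gene of blood vessels, rose by 0.40 ± 0.07 and Tnfrsf25, a death receptor of the tumour necrosis factor family, by 0.38 ± 0.06. Tm6sf2, a membrane protein of lipid export in liver, rose by 0.36, with 8 of 9 FC30 mice above all FC24 mice and 1, replicate 4, below the FC24 mean. Il1r1, the interleukin-1 receptor, rose by 0.36 (adjusted p = 0.0841 from limma). Zfp189, a zinc finger gene, rose by 0.28, Katna1, a microtubule-severing enzyme, by 0.24, Ackr3, an atypical chemokine receptor, by 0.23, and Pvr, an adhesion receptor, by 0.23. Ackr3 and Pvr did not overlap between the groups. Ccnjl, a cyclin J-like gene, rose by 0.22, Syna, an envelope gene of retroviral origin, by 0.21, and Sin3a, the scaffold of a histone deacetylase complex, by 0.13. The calls of Il1r1, Zfp189, Ccnjl, Syna and Sin3a were among the least secure, since each was kept in 4 to 7 of the 18 fits that left out 1 array. The largest adjusted p was 0.179 for Il1r1 and 0.151 for Sin3a without FC24 replicate 3, 0.185 for Ccnjl without FC24 replicate 1, and 0.193 for Zfp189 and 0.157 for Syna without FC30 replicate 7. Apold1 and Ackr3 lost their calls without FC24 replicate 3 (adjusted p = 0.104 and 0.107), and Zfp189 without the 2 arrays that stood apart (0.105).

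**Figure D2:**
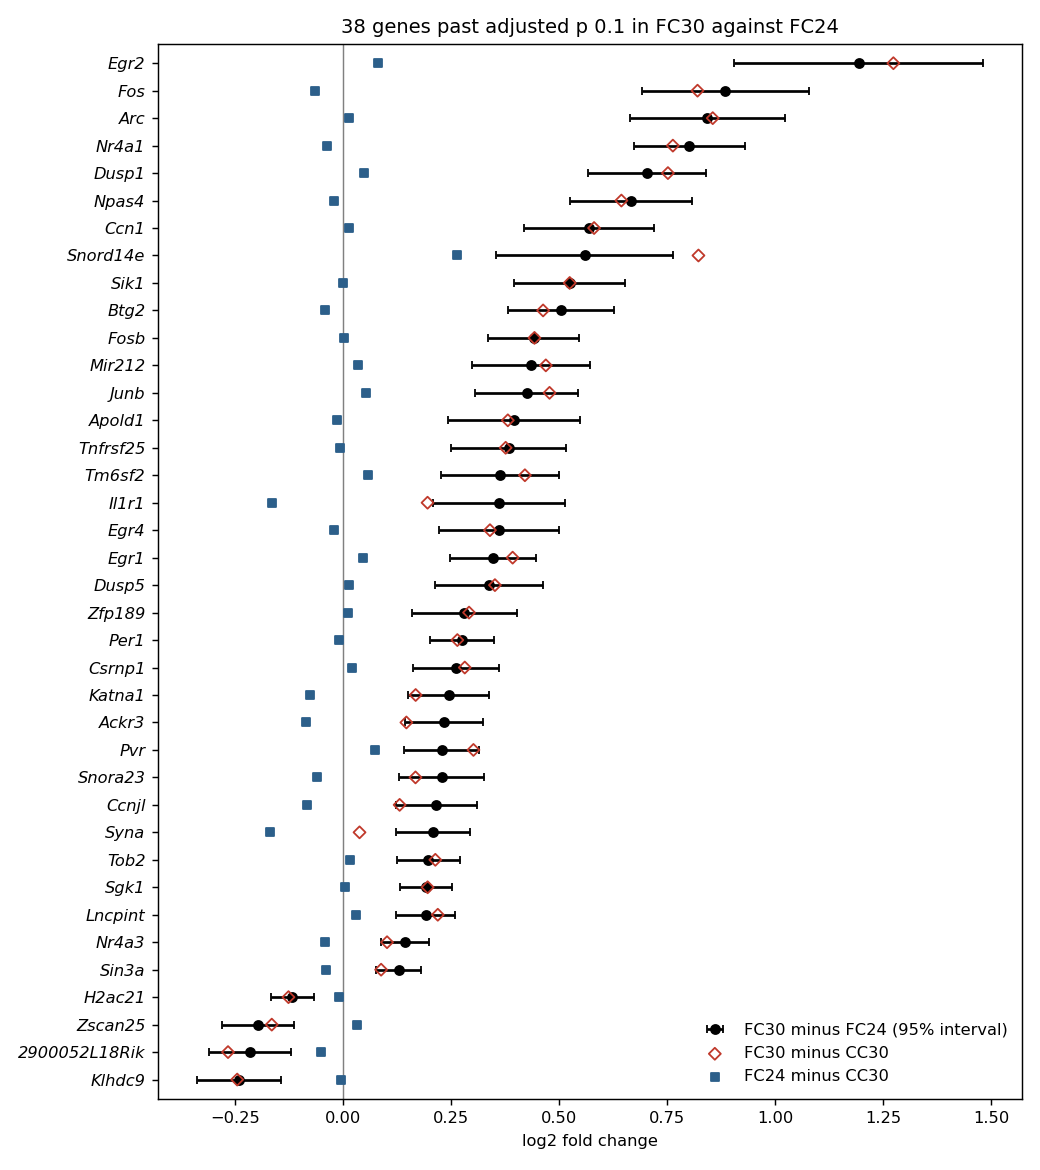
Log2 fold changes of the 38 genes called in FC30 against FC24 (black, with 95% intervals), beside their FC30 minus CC30 (red diamonds) and FC24 minus CC30 (blue squares) differences; rows run from the largest rise to the largest fall. Blue squares lie near 0 for nearly all genes, with Snord14e (0.26), Syna (-0.17) and Il1r1 (-0.17) farthest out.

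Clock and glucocorticoid-responsive genes were examined because both respond to handling and stress. Per1, a core clock gene that glucocorticoids and CREB also induce, lay at 8.49, 8.68 and 8.75 in FC30 mice and at 8.30, 8.40 and 8.44 in FC24 mice. The groups did not overlap, and the log2 fold change was 0.27 ± 0.03 (adjusted p = 0.000702 from limma). Per1 was the 1 gene of 17 clock genes that passed, and Per2 had a log2 fold change of 0.04 (95% interval -0.02 to 0.11). At an unadjusted p under 0.05 in limma, 3 of the 17 (17.6%) were higher and 0 lower, beside 4.82% and 3.06% of all genes. Of 25 glucocorticoid-responsive genes, Per1 and Sgk1 passed, 20 had a positive fold change and the median was 0.04. At an unadjusted p under 0.05, 7 of the 25 (28.0%) were higher and 0 lower. Fkbp5, a textbook glucocorticoid target, had 7.27 ± 0.07 in FC30 and 7.24 ± 0.12 in FC24 (log2 fold change 0.04, 95% interval -0.06 to 0.13). Ddit4, an inhibitor of mTOR signalling, had a log2 fold change of 0.23 and did not pass (adjusted p = 0.213), and passed without the 2 arrays that stood apart (0.28, adjusted p = 0.0427).

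Among noncoding RNAs, 1 of 306 microRNA genes and 2 of 59 small nucleolar and Cajal body RNAs were higher in FC30, and 0 were lower. Of all genes, 0.181% were called higher and 0.0213% lower. At an unadjusted p under 0.05, 20 microRNA genes were higher and 20 lower (6.54% each), beside 4.82% of all genes higher and 3.06% lower. Mir212 lay at 6.47, 6.69 and 6.98 in FC30 mice and at 6.14, 6.24 and 6.42 in FC24 mice, without overlap (log2 fold change 0.43 ± 0.06, adjusted p = 0.00493 from limma). Its neighbour Mir132, which is cut from the same CREB-driven primary transcript, lay at 4.33, 4.60 and 4.73 in FC30 mice and at 4.09, 4.37 and 4.46 in FC24 mice. The Mir132 groups overlapped in part, with 6 of 9 FC30 mice above all FC24 mice, and the log2 fold change of 0.21 did not pass (adjusted p = 0.316). The probe sets do not tell a precursor from its mature microRNA. The mature sequences from RefSeq (GRCm38.p6) are shown to compare the seeds, bases 2 to 8, in capitals.
miR-212-5p, chr11:75173403-75173425, plus strand: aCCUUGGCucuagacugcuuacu
miR-212-3p, chr11:75173443-75173464, plus strand: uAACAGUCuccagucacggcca
miR-132-5p, chr11:75173686-75173707, plus strand: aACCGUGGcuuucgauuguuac
miR-132-3p, chr11:75173723-75173744, plus strand: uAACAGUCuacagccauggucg

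The 3p arms of the 2 microRNAs share 1 seed, whereas the 5p arms have different seeds. Snord14e, a small nucleolar RNA that guides ribosomal RNA methylation, lay at 7.70, 8.15 and 8.36 in FC30 mice and at 7.35, 7.52 and 7.995 in FC24 mice. It was higher by 0.56 ± 0.10 (adjusted p = 0.0289 from limma), with 2 FC24 mice, replicates 4 and 9, inside the FC30 range. Near-identical copies of this RNA family exist, so signal from the copies cannot be told apart. Snora23 rose by 0.23, and its call was kept in 4 of the 18 fits that left out 1 array (largest adjusted p 0.187, without FC30 replicate 7) and was lost without the 2 arrays that stood apart (adjusted p = 0.144). Lncpint, a long noncoding RNA, rose by 0.19 ± 0.03 (adjusted p = 0.0215). Mir219a-2 had 5.63 ± 0.20 in FC30 and 5.96 ± 0.23 in FC24, a log2 fold change of -0.32 that did not pass (adjusted p = 0.365).

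The lower genes were few, and their differences were small. H2ac21, a replication-type histone H2A gene (Hist2h2ab in older naming), lay at 10.06, 10.10 and 10.17 in FC30 mice and at 10.18, 10.21 and 10.31 in FC24 mice. All FC30 mice lay below all FC24 mice, by 0.12 ± 0.02 on the log2 scale (0.92-fold, adjusted p = 0.0841 from limma). Klhdc9, a kelch domain gene, lay at 5.69, 5.86 and 5.98 in FC30 mice and at 5.99, 6.08 and 6.32 in FC24 mice, again without overlap (log2 fold change -0.24 ± 0.05, adjusted p = 0.0521 from limma). These were the 2 probe sets of 35556 (0.00562%) with such a separation in this direction. Zscan25, a zinc finger gene, fell by 0.20 (adjusted p = 0.0671) and the transcript 2900052L18Rik fell by 0.22 (adjusted p = 0.0943). Without the 2 arrays that stood apart, the adjusted p was 0.105 for H2ac21, 0.11 for Zscan25 and 0.11 for 2900052L18Rik, and Klhdc9 passed (0.09). H2ac21 kept its call in 4 of the 18 fits that left out 1 array, 2900052L18Rik in 4, Zscan25 in 7 and Klhdc9 in 13, and the largest adjusted p came without FC30 replicate 7 (0.18, 0.204, 0.157 and 0.116 in that order). Of the 15 H2A genes, H2ac21 alone passed, 3 had a positive fold change and the median was -0.04. H2aj (-0.12, adjusted p = 0.382) and H2ac15 (-0.10, adjusted p = 0.519) came closest. Histone genes are near-identical in sequence, so their probe sets may share signal. Of 31 other histone genes 0 passed the limma test, 2 had an unadjusted p under 0.05, and the median was 0.0027.

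**Figure D3:**
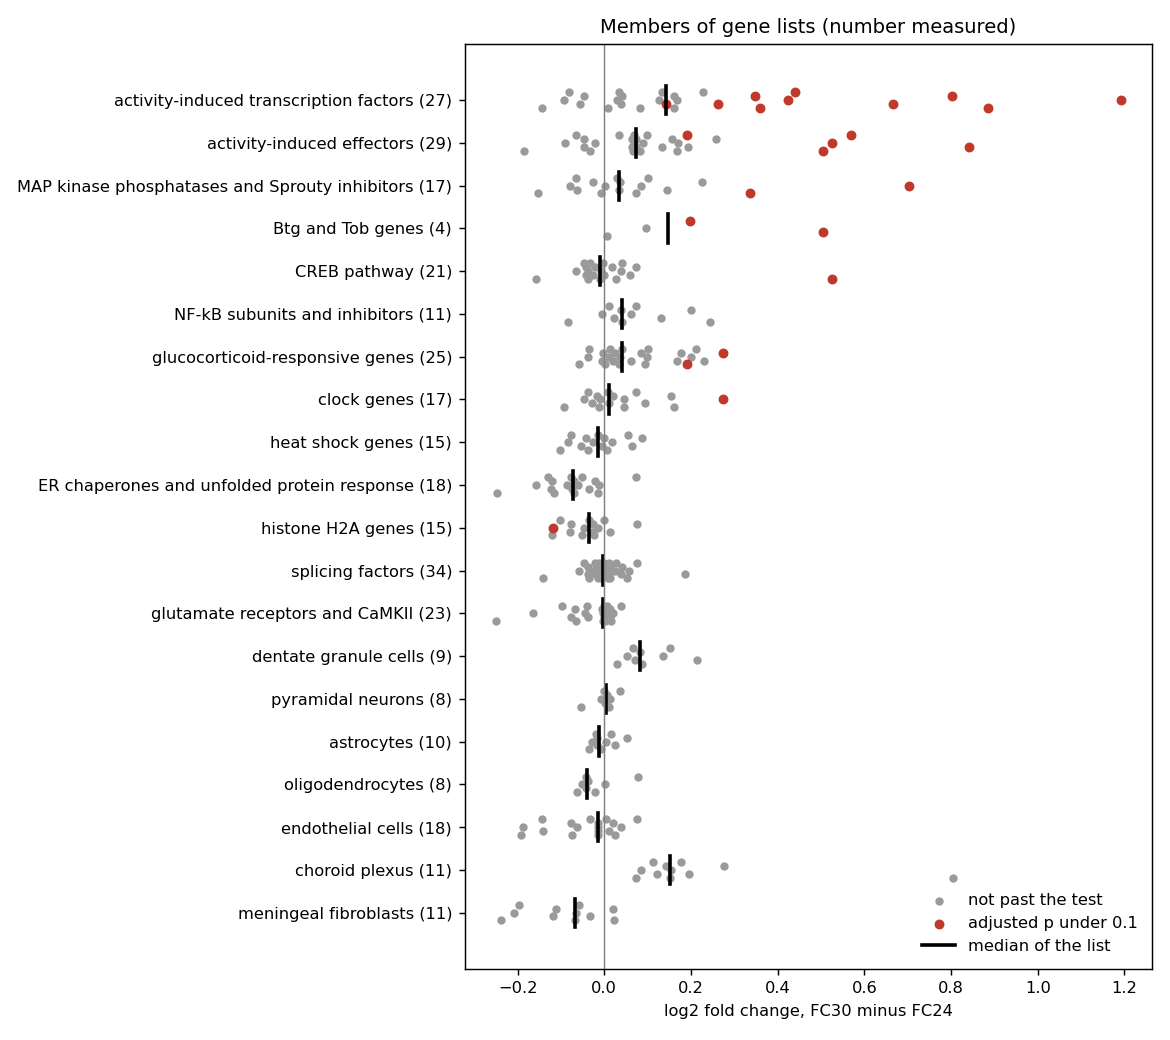
Log2 fold change (FC30 minus FC24) of each measured member of 20 gene lists, with the number measured in brackets; red points passed an adjusted p of 0.1, grey points did not, and bars mark list medians. Red points cluster in the first lists, the ER chaperones lie mostly left of 0, and the choroid plexus markers lie right of 0 without passing.

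Lists of other processes held no called gene. Of all 18820 genes, 53.8% had a positive fold change, and at an unadjusted p under 0.05 4.82% were higher and 3.06% lower. Of 18 chaperones of the endoplasmic reticulum and unfolded protein response genes, 17 had a negative fold change and 8 (44.4%) an unadjusted p under 0.05 with lower values, with a median of -0.07. Hspa5, the main chaperone of this compartment, had 10.10 ± 0.11 in FC30 and 10.26 ± 0.13 in FC24 (log2 fold change -0.16, adjusted p = 0.47 from limma). Sdf2l1 (-0.25, adjusted p = 0.277), Xbp1, a transcription factor of the unfolded protein response (-0.12, adjusted p = 0.477), and the chaperone Hyou1 (-0.09, adjusted p = 0.331) likewise did not pass. Of 19 cholesterol synthesis genes, 17 (89.5%) had a positive fold change (median 0.05) and 4 (21.1%) an unadjusted p under 0.05, with Msmo1, a sterol oxidase, at 0.11 (adjusted p = 0.502). These counts are a description. Of 15 heat shock genes 0 passed and 2 had an unadjusted p under 0.05, with a median of -0.01, and of 34 splicing factors 0 passed and 1 had such a p, with a median of -0.0024. Rbfox1, a neuronal splicing regulator, had 11.41 ± 0.05 in FC30 and 11.37 ± 0.05 in FC24 (log2 fold change 0.04, adjusted p = 0.75). Among 23 glutamate receptors and CaMKII genes 0 passed, 4 had an unadjusted p under 0.05 and the lowest was Camk2d at -0.25 (adjusted p = 0.425). Of 11 histone deacetylases, 11 DNA methylation enzymes, 4 neurotrophin genes, 15 neuropeptides and 32 oxidative phosphorylation genes 0 passed in limma, with 2, 1, 0, 2 and 1 at an unadjusted p under 0.05. Of 990 olfactory receptor genes 0 passed, with 36 higher (3.64%) and 12 lower (1.21%) at an unadjusted p under 0.05. Adcyap1, a neuropeptide of the pituitary adenylate cyclase pathway, had a log2 fold change of -0.25 (adjusted p = 0.44). The ER, cholesterol, Adcyap1 and Camk2d examples were picked after their values were seen.

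Markers of other cell types were checked beside these results. Over the 14 cell type lists 0 markers passed in limma, with 4 of 128 higher (3.12%) and 8 lower (6.25%) at an unadjusted p under 0.05. All 11 choroid plexus markers had a positive fold change (median 0.15), with a mean marker level of 5.41 to 6.96 in FC30 mice and 5.38 to 7.26 in FC24 mice. Ttr, the plexus transthyretin gene, ranged from 7.72 to 11.58 in FC30 mice and from 7.54 to 11.95 in FC24 mice, a spread within each group larger than the group difference. All 9 dentate granule cell markers were also positive (median 0.08), with a mean level of 8.06 to 8.40 in FC30 mice and 7.95 to 8.17 in FC24 mice. At an unadjusted p under 0.05 in limma, 2 of the 9 granule cell markers (22.2%) were higher and 0 lower, beside 4.82% and 3.06% of all genes. The part of the plexus and granule cell markers in the results was not tested. Of 18 endothelial markers 6 were positive, with Sox18, a vascular transcription factor, at -0.19 (adjusted p = 0.249) and Cldn5, a tight junction protein, at -0.19 (adjusted p = 0.37). Markers of pyramidal neurons, which define the tissue as hippocampus, had a mean level of 10.00 to 10.08 in FC30 mice and 9.98 to 10.07 in FC24 mice.

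The handled CC30 mice placed the differences on a baseline. CC30 shares its time of day with both groups, and the FC30 and FC24 arrays are the same as above, so values are given side by side. Against CC30, 91 probe sets (0.256%) passed in FC30 and 0 (0%) in FC24. In the FC24 comparison 1534 probe sets had an unadjusted p under 0.05, pair-wise equal-variance tests ranked by local false discovery rate called 11, and a fit of all 8 groups together called 1. The 38 called genes were picked on the same FC30 and FC24 arrays, and the share of all genes within 0.1 of CC30 was not computed. Over all probe sets the median standard error of FC24 against CC30 was 0.0488. Of the 38, 35 lay within 0.1 of CC30 in FC24. The median absolute log2 difference from CC30 was 0.32 for FC30 and 0.0364 for FC24. Arc averaged 8.61 in FC30, 7.77 in FC24 and 7.76 in CC30. The exceptions were Snord14e, which was 0.26 above CC30 in FC24 (unadjusted p = 0.00234, adjusted p = 1), and Syna and Il1r1, which were 0.17 below it. For Syna the FC30 mean was 0.04 above CC30, so the FC30 and FC24 difference lay mostly on the FC24 side.

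Levels in the other groups are given as a description. In trained mice at 30 min, 4 h, 12 h and 24 h, Fos averaged 5.49, 4.59, 4.82 and 4.60. Arc averaged 8.61, 7.72, 8.16 and 7.77 at these times, beside 8.23 in the handled CC12 mice. Arc was thus above CC30 also in both 12 h groups, which were dissected at another time of day. Klhdc9 averaged 5.86 in FC30, 5.83 in FC12 and 5.86 in CC12, against 6.10 in FC24. Snord14e averaged 8.15 in FC30, 8.26 in FC12 and 8.42 in CC12, against 7.59 in FC24. The FC30 mean lay within 0.1 of both 12 h groups, trained or not, for 8 of the 38 called genes. These were the higher Il1r1, Per1, Katna1, Ackr3, Tob2 and Sin3a and the lower Zscan25 and Klhdc9. The count of 8 leaves out genes with a 12 h mean more than 0.1 above FC30. Tnfrsf25 averaged 8.04 in FC30, 8.13 in FC12 and 8.22 in CC12, and Tm6sf2 averaged 6.91, 7.09 and 7.20. For 30 of the 38, both 12 h means lay nearer the FC30 mean than the FC24 mean did. The 38 genes were called for their gap between FC30 and FC24, and the share of all genes was not computed. Differences from the 12 h groups were not tested. After retrieval, the RT30 mean lay above the FC24 mean for 34 of the 34 higher genes and above the FC30 mean for 8 of them. The higher genes were called on these same FC30 and FC24 values, which tilts both counts. Shares over all genes were not computed for them. Over all 72 arrays the genes whose values were most like those of Arc were Nr4a1 (Pearson r = 0.89), Dusp1 (0.88), Egr2 (0.85), Sik1 (0.84) and Dusp5 (0.83), followed by Fos, Tnfrsf25, Junb, Mir212 and Lncpint (0.81 to 0.80). These correlations describe arrays that share group differences. After removing group means r was 0.80 for Nr4a1, 0.68 for Dusp1, 0.69 for Egr2, 0.46 for Fos, 0.51 for Junb, 0.43 for Lncpint and 0.27 for Mir212.

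**Figure D4:**
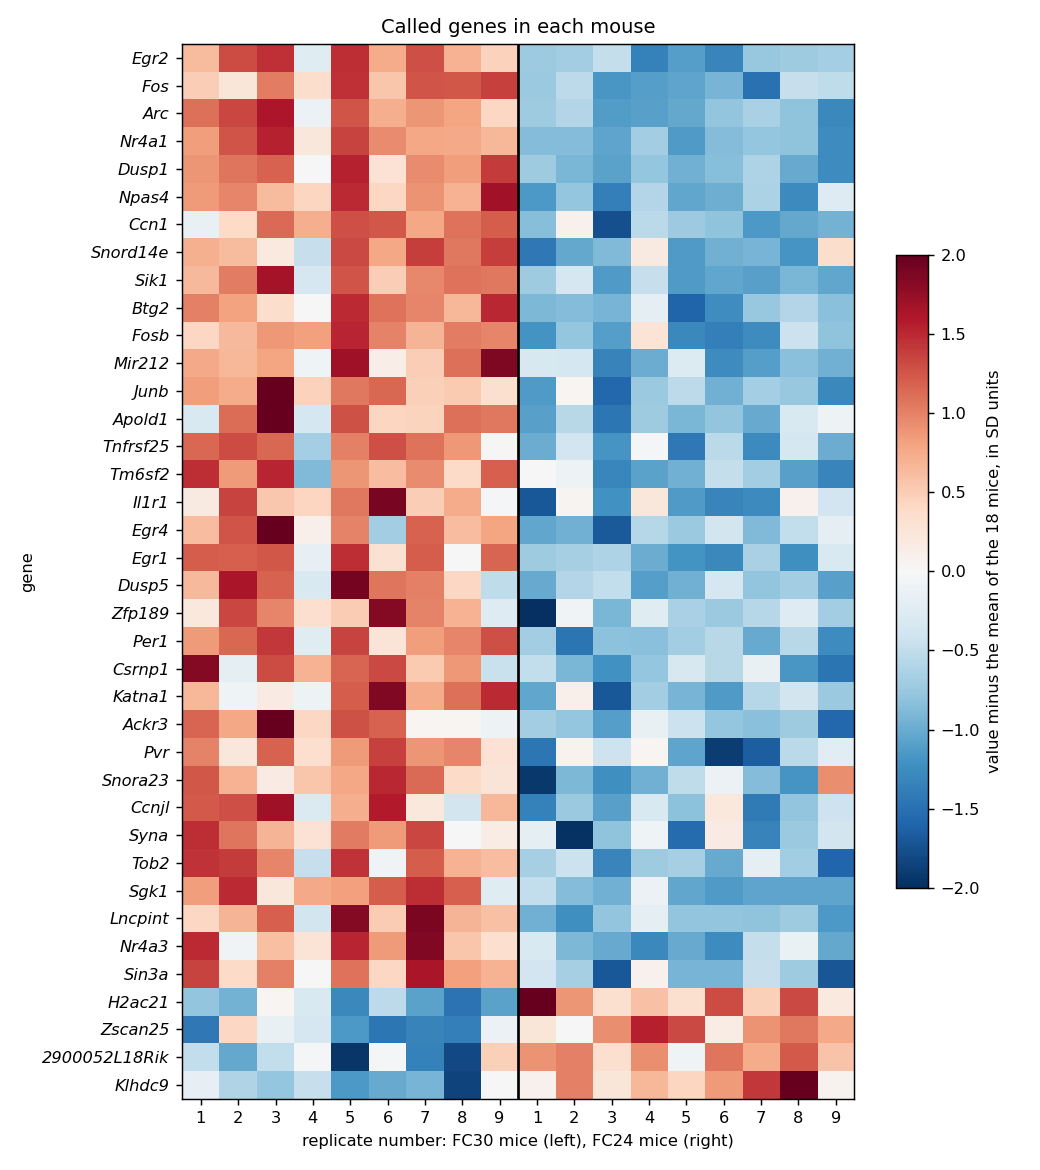
Values of the 38 called genes in the 9 FC30 mice (left) and 9 FC24 mice (right), each gene centred on the mean of the 18 mice and divided by its SD (colour, in SD units). FC30 replicate 4 is the palest FC30 column among the higher genes, and it was the lowest FC30 mouse in 17 of the 34.

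Most higher genes were spread more widely among FC30 mice than among FC24 mice. For 25 of the 34 higher genes the SD was larger in FC30 than in FC24, a relation that held for 54.5% of all probe sets. The median SD of the higher genes was 0.138 in FC30 and 0.105 in FC24. FC30 replicate 4 was the lowest FC30 mouse for 17 of the 34 genes, and replicate 3 was the highest for 10. Such ranks were not counted over all genes, and genes that move together are not separate observations. Replicate 4 was also the array with the extreme PC1 score, and its part in these ranks was not tested. Without FC30 replicate 4 the number of called probe sets was 50, and without both arrays that stood apart it was 64.

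Within FC30, Nr4a1 and Egr2 followed Arc from mouse to mouse. Over the 9 FC30 mice Arc correlated with Nr4a1 (Pearson r = 0.94, Spearman rho = 0.88, exact permutation p = 0.000198 and 0.00308, adjusted p = 0.00198 and 0.0308) and with Egr2 (r = 0.90, rho = 0.83, exact permutation p = 0.00132 and 0.00827, adjusted p = 0.00659 and 0.0413). Without the 2 mice farthest from the median of Arc, replicates 3 and 4, r was 0.82 for Nr4a1 and 0.74 for Egr2. For Dusp1 r was 0.62 (rho 0.55, exact permutation p = 0.0753 and 0.133, adjusted p = 0.151 and 0.332) and 0.18 without those mice. Fos (r = 0.13, rho = -0.03, exact permutation p = 0.733 and 0.948) and Npas4 (r = 0.13, rho = 0.22, exact permutation p = 0.736 and 0.581) showed no relation that could be detected with 9 mice. In FC24 none of the 5 genes passed. There r was 0.64 for Nr4a1, 0.05 for Egr2, 0.69 for Dusp1, 0.01 for Fos and -0.25 for Npas4, with adjusted exact permutation p from 0.127 to 0.986. Without the 2 FC24 mice farthest from the median of Arc, replicates 3 and 9, r was 0.15 for Nr4a1, 0.73 for Egr2 and 0.26 for Dusp1, so these FC24 values rest on those mice. Differences between these correlations were not tested. The 10 relations were adjusted together by Benjamini-Hochberg, and the genes were picked after their values were seen.

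**Figure D5:**
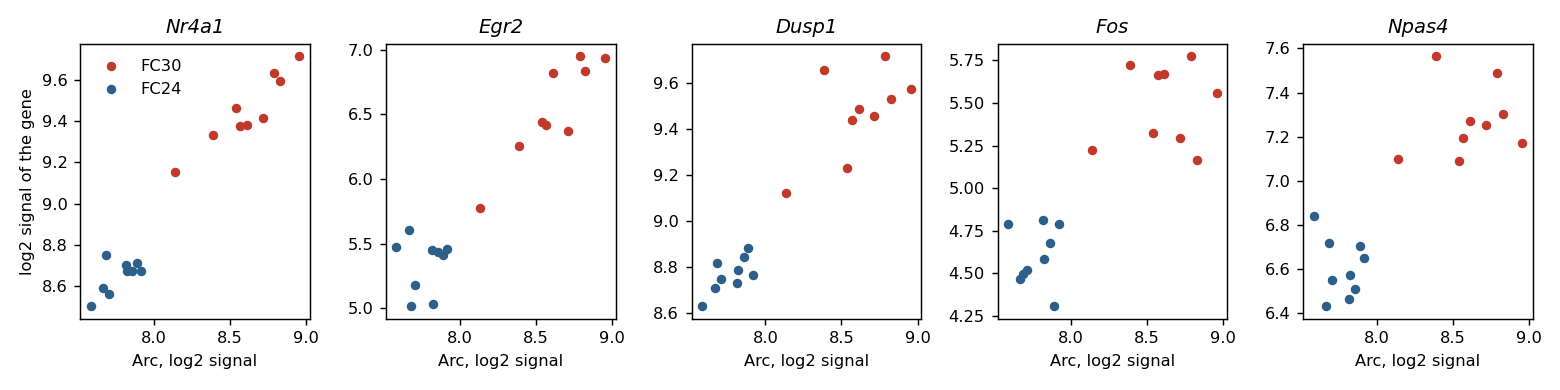
Log2 signal of 5 genes (y axis, own scale) against that of Arc (x axis) in single FC30 (red) and FC24 (blue) mice. Nr4a1 and Egr2 rise with Arc among the FC30 mice (r = 0.94 and 0.90), and r was 0.13 each for Fos and Npas4.

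The threshold fell among genes with similar fold changes. Just inside lay Ccnjl at 0.22 on the log2 scale (limma, adjusted p = 0.0913), Zfp189 at 0.28 (0.0928) and 2900052L18Rik at -0.22 (0.0943). Just outside lay Cntn4, a neuronal adhesion gene, at -0.19 (0.111), Zfp597, a zinc finger gene, at 0.18 (0.113) and Rel at 0.24 (0.118).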

How the data were processed

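Hippocampal RNA was hybridised to Affymetrix Mouse Gene arrays, 1 for each of 72 mice in 8 groups of 9, and the authors applied RMA to them with the Power Tools of Affymetrix. The log2 values as deposited, background corrected and quantile normalized by the authors, cover 35556 probe sets with 0 missing values, and array medians lay between 5.82 and 5.88. Groups came from the sample labels. PC1, from a singular value decomposition of values centred on each probe set over all arrays, was subtracted. Each comparison was fitted to its 18 arrays with limma 3.58.1 in R 4.3.3, two-sided, with Benjamini-Hochberg adjustment over all probe sets and a threshold of 0.1. Scripts were tested on simulated data.

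Symbols came from the platform annotation. Of the probe sets, 21218 carry 1 symbol, 1881 several and 12457 none. In lists, the probe set with the highest mean stood for a gene. Named were the 15 largest rises and 10 largest falls, called list members and genes the study names, Srpk2, Mirg and Snord14d not among those with a probe set of 1 symbol. Members and lists were chosen with earlier results of these data known, and other genes named were added after their values were seen. Promoter windows and microRNAs came from RefSeq (GRCm38.p6). Python 3.11.15 with numpy 2.4.6, scipy 1.17.1, pandas 2.3.3 and matplotlib 3.10.9 served for correlations, permutation tests and figures. The alternatives were other numbers or sources of components, a joint fit of all groups, pair-wise equal-variance tests with Benjamini-Hochberg adjustment or local rates (the methods name local rates of pair-wise statistics, and equal variance was assumed here), trend and robust estimation, array weights, filters on dim or unnamed probe sets, a replicate block and leaving out arrays. Quantitative PCR and protein data were not used here.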

Additional observations from a re-analysis of the deposited data

Results flagged for a closer look

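A mouse was singled out by Dixon's test, which divides the distance between the outermost value and its neighbour by the range of the 9 mice, at the 95% level. This was the case in 8 of 154 combinations of gene or component and group, and chance gives about 1 in 20. In FC30, Junb was high in replicate 3 (7.46), Tm6sf2 was low in replicate 4 (6.52) and Cntn4 was high in replicate 9 (7.66). In FC24, Zfp189 was low in replicate 1 (7.81), Lncpint was high in replicate 4 (9.85) and Homer1 was high in replicate 2 (8.99). The PC1 score was 68.6 in FC30 replicate 4 and 2.83 in FC24 replicate 4, each apart from its group.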

How the results depend on the processing

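The main setting called 54 probe sets in FC30 against FC24, 42 higher and 12 lower. The count was 85 (67 higher) with PC1 from residuals within groups, 30 (0 lower) with PC1 from the compared arrays alone, and 9 (9 higher, 0 lower) with the local rates computed on z-scores, an alternative chosen after seeing the data. Without the arrays that stood apart 4 were lower, and with PC1 found again 64 were higher. The lower count was 19 with PC1 and PC2 removed, 5 with PC1 as a covariate and 5 with pair-wise equal-variance tests and Benjamini-Hochberg adjustment. Leaving out 1 array gave 30 (without FC24 replicate 3) to 77 (without FC30 replicate 9) calls, 29 to 58 higher and 1 to 21 lower. The cause was not tested. Egr2, Fos, Arc, Nr4a1, Dusp1, Npas4, Ccn1, Sik1, Btg2, Fosb, Mir212, Junb, Egr1, Per1 and Dusp5 passed under the 15 alternatives set beforehand and the 18 that left out 1 array. On z-scores 8 of the 38 called genes passed.

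FC30 against CC30 called 91 (66 higher, 25 lower), 53 (42 and 11) with only probe sets of 1 symbol and 16 (16 and 0) with z-scores. FC24 against CC30 called 0, against 1 (1 lower) with all groups in one fit and 11 (7 higher, 4 lower) with local false discovery rates. Prpf38b, near 0 (-0.01), turned to 0.0071 without the arrays that stood apart and to 0.0043 with PC1 then recomputed, and leaving out 1 array gave -0.023 to 0.0069.

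Replicate numbers did not pair the samples: correlations of same-numbered arrays, after removing group means, ran from -0.184 to 0.0183, and 0 of 9 FC30 arrays correlated best with their own number. With the replicate block, 19 probe sets (19 higher, 0 lower) were called in FC30 against FC24 and 43 (32 and 11) in FC30 against CC30.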
